A study of Mus musculus with 12 samples.

Results

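The Ms4a genes described here are Ms4a6b, Ms4a6c, Ms4a6d, Ms4a7 and Ms4a4c, found by their symbols in the RNA tables of BV2 cells, a mouse microglial cell line. Microglia are the macrophages of the brain. All 5 were present among the 24062 entries of each table, and another 13 genes of the wider Ms4a and Tmem176 family were found beside them. The cells carried 1 of 4 transient treatments, each measured in 3 libraries: a hairpin RNA that lowers Spi1 (knockdown), a scrambled hairpin (scrambled control), a mouse Spi1 cDNA (overexpression) and an empty construct (empty control). Cells were sorted by flow cytometry before polyA RNA was taken, and the labels state no further treatment of the cultures. The design sets each Spi1 treatment against its own control and shares no control between the experiments. The labels do not state whether replicate libraries are separate cultures, and p-values here therefore measure a spread between libraries that may be technical.

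Ms4a proteins are tetraspan proteins of the plasma and endosomal membrane of leukocytes. The best known are CD20 of B cells, encoded by Ms4a1, and the beta chain of the IgE receptor of mast cells, encoded by Ms4a2. In humans, common variants near MS4A4A and MS4A6A are associated with the risk of Alzheimer's disease and with the amount of soluble TREM2 in cerebrospinal fluid. Mouse Ms4a6b, Ms4a6c and Ms4a6d are related to human MS4A6A, Ms4a7 marks many tissue macrophages, including those at the borders of the mouse brain, and Ms4a4c is known in mouse immune cells as an interferon-inducible gene. Spi1 encodes PU.1, an ETS family transcription factor of myeloid cells that binds DNA around the core letters GGAA.

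The 5 genes lie within 283.81 kb of mouse chromosome 19 (GENCODE M21, mm10). Ms4a7 occupies chr19:11321039-11336146 on the minus strand, Ms4a4c chr19:11404770-11427246 on the plus strand, and Ms4a6c chr19:11469366-11482192 on the plus strand. Ms4a6b follows at chr19:11516512-11531256 on the plus strand and Ms4a6d at chr19:11586604-11604849 on the minus strand. They are part of a run of 19 annotated Ms4a genes over 678.558 kb. By transcript sequence, Ms4a6b and Ms4a6c were the closest pair, with 89.15% identity over 1124 aligned bases. Ms4a6b and Ms4a6d were 83.39% identical over 867 bases, and Ms4a6c and Ms4a6d were 81.15% identical over 907 bases.

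Near-identity matters for how reads of 100 bases are assigned. No stretch of 100 bases of Ms4a6b, Ms4a6d or Ms4a7 transcripts occurred in a transcript of another gene. Ms4a4c shared 1.66% of its stretches with Ms4a4b. Ms4a6c shared 45.8% of its stretches with BE692007, a transcript on the opposite strand whose exons overlap those of Ms4a6c by 1088 bases. The library kit does not mark strand and BE692007 has no entry in the tables, so Ms4a6c values are uncertain to the extent that reads of BE692007 were counted with it.

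Promoter sequences were taken from RefSeq (build GRCm38.p6), where 4 of the 5 genes matched and Ms4a6d did not. The 120 bases before the RefSeq start are shown for Ms4a7 (chr19:11336147-11336266, minus strand), Ms4a4c (chr19:11407541-11407660, plus strand) and Ms4a6c (chr19:11469248-11469367, plus strand), because PU.1 was the factor changed and these genes can be set side by side for its core. Capitals mark GGAA on either strand, which reads TTCC on the other.
Ms4a7: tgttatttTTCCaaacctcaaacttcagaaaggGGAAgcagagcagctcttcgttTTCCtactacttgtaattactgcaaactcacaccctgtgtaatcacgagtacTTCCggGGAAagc
Ms4a4c: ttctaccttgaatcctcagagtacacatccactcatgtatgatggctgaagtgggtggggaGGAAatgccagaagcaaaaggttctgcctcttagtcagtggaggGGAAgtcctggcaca
Ms4a6c: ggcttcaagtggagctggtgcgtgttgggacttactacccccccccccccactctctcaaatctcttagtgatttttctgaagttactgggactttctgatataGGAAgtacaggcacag

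In the RefSeq promoter windows of Ms4a6b and Ms4a6c, 182 of 213 aligned bases were identical, with 9 gap bases and an unbroken identical run of 48 bases. That run lies 118 to 71 bases before the RefSeq start of Ms4a6b, at position 11518559, and 49 to 2 bases before that of Ms4a6c, at position 11469368. The RefSeq start of Ms4a6b lies inside the GENCODE gene, and 106 of the 120 bases before it are exon of Ms4a6b there, against 2 of 120 for Ms4a6c. Its last 30 bases hold 1 GGAA core and are found at chr19:11518459-11518488 for Ms4a6b and chr19:11469337-11469366 for Ms4a6c.
Ms4a6b and Ms4a6c: ggactttctgatataGGAAgtacaggcaca

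Over 300 bases, from 250 before to 50 after the start, the core GGAA was found 8 times for Ms4a7, 4 times for Ms4a6b, 4 times for Ms4a6c and 3 times for Ms4a4c. These letters are common, as 96% of the 32851 promoters in the table hold them on 1 strand or the other. The longer form GAGGAA, which is closer to the PU.1 site and contains the core, was found once for Ms4a4c, 61 bases before the start, and once for Ms4a7, at position 44 after the start. Of all promoters 28.3% hold it. Neither the composite of ETS and interferon factors (GGAA, any pair of bases, GAAA), held by 2.72% of promoters, nor the interferon response form (GAAA, any pair of bases, GAAA), held by 3.44%, occurred in the 4 genes. TTGCNNAA, a C/EBP form held by 10.8% of promoters, was not found either. TGANTCA, the AP-1 form held by 7.81%, occurred only before a second RefSeq start of Ms4a7, at 81 bases before it. Each motif was searched on both strands, and a match describes letters and not binding.

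The target of the treatments was measured first. Spi1 stood at 50.9, 42.4 and 52.3 FPKM in the knockdown libraries, against 159, 169 and 168 FPKM in the scrambled controls. It stood at 287, 224 and 206 FPKM in the overexpression libraries, against 158, 117 and 131 FPKM in the empty controls. FPKM divides a gene's reads by its length in kilobases and by the library's total in megareads. Mean Spi1 was therefore 29.3% of its control in knockdown and 176% in overexpression, and neither pair of groups overlapped. On the log2 scale Spi1 changed by −1.75 in knockdown (limma, Benjamini-Hochberg or BH-adjusted p = 0.000697) and 0.81 in overexpression, where it was called with the library number as a block (limma, BH-adjusted p = 0.0357) and not without it (BH-adjusted p = 0.9999). Libraries held 22.3 to 33.1 megareads. Of 13 microglia and macrophage genes found, 10 reached 1 FPKM, while Sall1 was at 0 and P2ry12 and Cx3cr1 stayed at or under 0.415 and 0.903 FPKM. The summed level of these genes was 1239 to 1368 FPKM in knockdown, against 1561 to 1694 in the scrambled controls, and 1437 to 1622 in overexpression, against 1488 to 1675 in the empty controls. Their part in the results below was not tested, and in bulk RNA a lower share of cells that express a gene and less of its RNA per cell cannot be told apart.

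The 5 genes were expressed at very different levels, as the plot of the cluster along the chromosome shows. Over the 12 libraries Ms4a6d averaged 24.952 FPKM, Ms4a7 6.76, Ms4a6c 2.74, Ms4a6b 1.20 and Ms4a4c 0.335 FPKM. FPKM is scaled by gene length, so these levels were set side by side. The gene lengths used by the authors are not stated, and Ms4a6c may include reads of BE692007. Levels compared between genes, and shares of their sum, carry these limits. Ms4a6d was the most abundant of the 5 in every library and held 65.7% of their summed FPKM in knockdown, against 68.9% in the scrambled controls, and 67.7% in overexpression, against 73.9% in the empty controls. Ms4a7 came next, with 21.1% in knockdown, against 19.9% in the scrambled controls, and 19.3% in overexpression, against 15.7% in the empty controls.

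**Figure D1:**
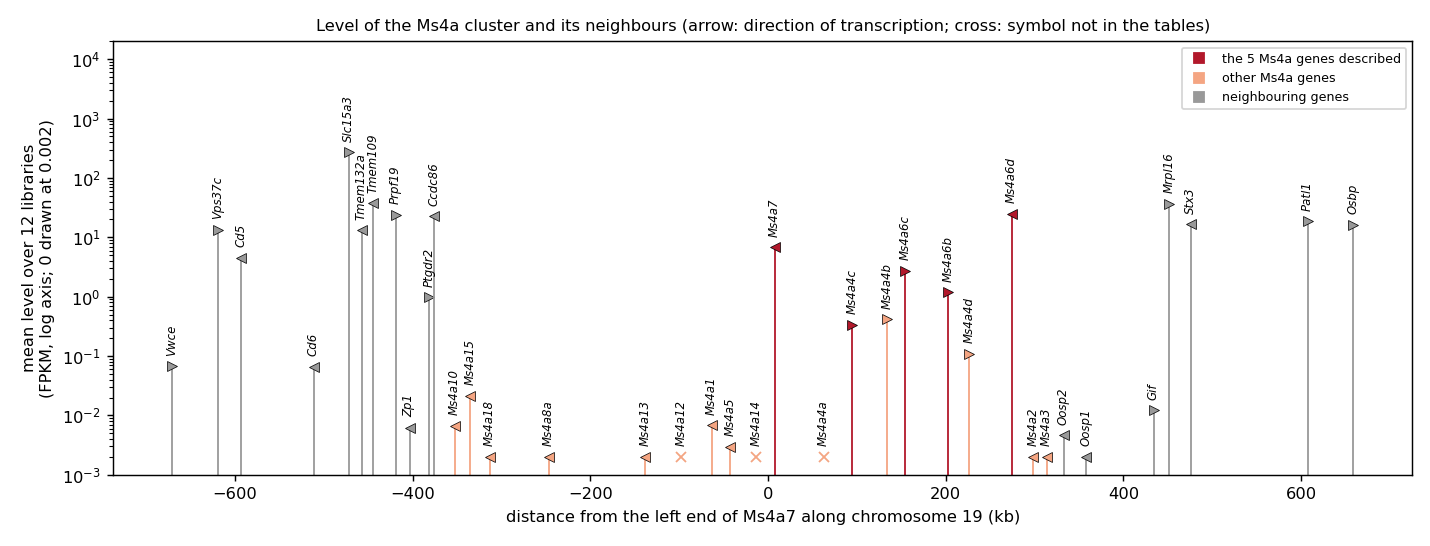
Mean level over the 12 libraries (FPKM, log axis) of the Ms4a genes and their neighbours, placed by distance in kb from the left end of Ms4a7 on chromosome 19, with arrows for the direction of transcription, crosses for symbols not in the tables and values of 0 drawn at the foot of the axis. Ms4a6d at 24.952 FPKM and Ms4a7 at 6.76 FPKM stand far above most other Ms4a genes, and abundant genes outside the family lie on both sides of the cluster.

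With Spi1 lowered, 4 of the 5 genes fell. Ms4a6d fell to 32.4% of its scrambled mean, Ms4a7 to 36.6%, Ms4a6c to 47.2% and Ms4a6b to 20.7%. Ms4a4c was too low to pass the filter of a mean of 1 FPKM. Ms4a6b passed it with a mean of 1.04 FPKM, reached through the controls alone, and its call was lost in some settings given below. Across all genes tested, 8.86% were called lower in knockdown by limma at an adjusted p below 0.05, and 15.1% had all 3 knockdown libraries below all 3 scrambled controls.

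Ms4a6d had 12.8, 11.2 and 9.22 FPKM in the knockdown libraries, against 32.7, 41.3 and 28.4 FPKM in the scrambled controls. The highest knockdown library lay below the lowest control. The log2 fold change was −1.54 with a standard error of 0.155 (limma, BH-adjusted p = 0.00201), on the log2(FPKM + 1) scale, where the added 1 makes changes of weakly expressed genes look smaller. Only 10 genes of the 11214 tested had a lower log2 fold change, since Ms4a6d ranked 11 in that order. Its mean was 11.0 ± 1.77 FPKM in knockdown and 34.1 ± 6.56 FPKM in the scrambled controls (SD, n = 3 each), beside 29.3% of control for Spi1 itself.

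Ms4a7 had 4.43, 2.86 and 3.37 FPKM in the knockdown libraries, against 12.1, 8.82 and 8.17 FPKM in the scrambled controls. The groups did not overlap. The log2 fold change was −1.23 with a standard error of 0.167 (limma, BH-adjusted p = 0.00407), rank 21 from the bottom of the genes tested. The mean was 3.55 ± 0.800 FPKM in knockdown and 9.71 ± 2.13 FPKM in the scrambled controls (SD, n = 3 each).

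Ms4a6c, the near copy of Ms4a6b, had 2.24, 1.50 and 1.31 FPKM in the knockdown libraries, against 3.25, 4.13 and 3.32 FPKM in the scrambled controls. The groups again did not overlap, though the library numbered 1 was nearest to its control. The log2 fold change was −0.78 with a standard error of 0.136 (limma, BH-adjusted p = 0.00867). Without both libraries numbered 2 it was −0.65 and missed the threshold (limma, BH-adjusted p = 0.0787). With limma-voom on recovered reads the log2 fold change was −1.20 (BH-adjusted p = 0.00258). As a percentage of control, Ms4a6c kept the most of the 4 genes that were called.

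Ms4a6b had 0.647, 0.178 and 0.251 FPKM in the knockdown libraries, which are 29, 8 and 14 reads. The scrambled controls had 2.02, 2.24 and 0.923 FPKM, which are 88, 93 and 38 reads. The groups did not overlap, but the control numbered 3 was the lowest of its group, with an exact Poisson 95% interval of 0.653 to 1.27 FPKM that meets the interval of 0.433 to 0.929 FPKM of the first knockdown library. Such intervals cover counting error only. The log2 fold change was −0.99 with a standard error of 0.212 (limma, BH-adjusted p = 0.0163). Ms4a6b entered the test with a mean of 1.04 FPKM, reached through the controls alone, as 2 of 3 scrambled and 0 of 3 knockdown libraries had 1 FPKM or more. Its log2 fold change was larger in size with a pseudocount of 0.1, at −2.04, and with limma-voom on recovered reads, at −2.45. With no filter on low values the adjusted p was 0.0522, and it was 0.0533 without the knockdown library numbered 2 and 0.0589 without that numbered 3 (limma, BH). Without the scrambled library numbered 1 or 2 the gene fell below the filter and was not tested.

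Ms4a4c had 0.262, 0.261 and 0.140 FPKM in the knockdown libraries, against 0.293, 0.402 and 0.214 FPKM in the scrambled controls. These are 12, 12 and 8 reads against 13, 17 and 9 reads, and the groups overlapped. With no filter the log2 fold change was −0.09 (limma, BH-adjusted p = 0.460). A change of Ms4a4c was not detectable at this depth.

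**Figure D2:**
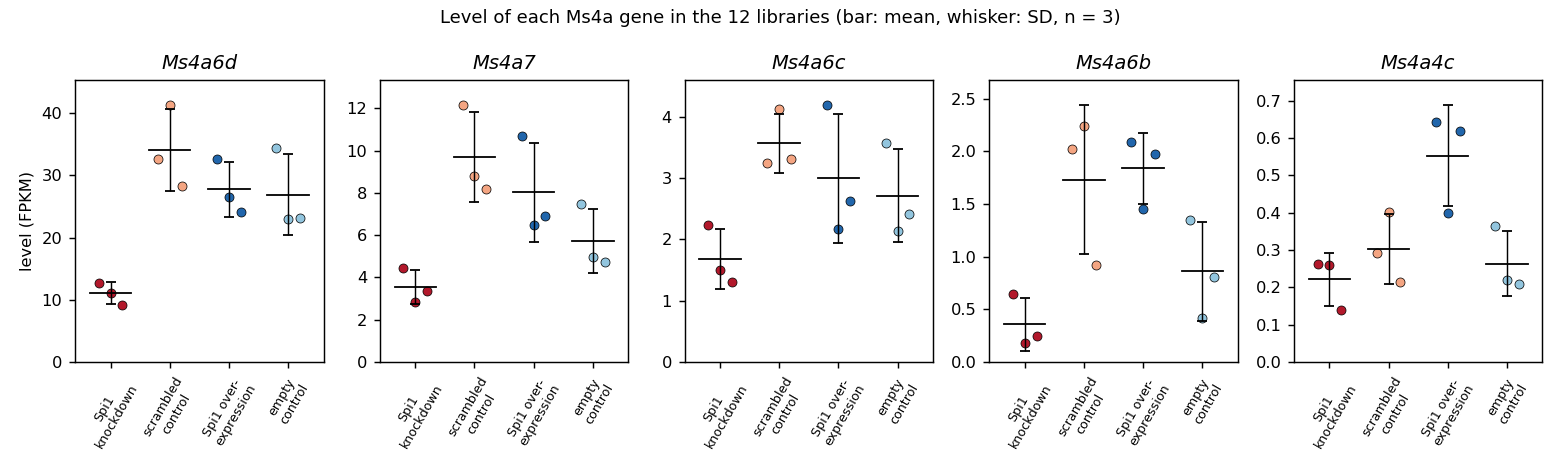
Level (FPKM, linear axes from 0 that differ between panels) of Ms4a6d, Ms4a7, Ms4a6c, Ms4a6b and Ms4a4c in each of the 12 libraries, with the mean as a bar and the SD as a whisker over 3 libraries a group. Knockdown libraries lie below all scrambled controls in the first 4 panels, and overexpression libraries lie above all empty controls for Ms4a6b and Ms4a4c.

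Outside the cluster the related genes did not fall. The Tmem176 pair, tetraspan genes related to the Ms4a family that lie on another chromosome, were the only other family members to reach 1 FPKM, and both rose. Tmem176a had 24.4, 27.6 and 31.5 FPKM in knockdown, against 12.8, 12.7 and 18.1 FPKM in the scrambled controls, a log2 fold change of 0.90 (limma, BH-adjusted p = 0.00712). Tmem176b had 37.4, 40.2 and 43.4 FPKM in knockdown, against 19.9, 23.9 and 29.9 FPKM in the scrambled controls, a log2 fold change of 0.71 (limma, BH-adjusted p = 0.0120). In both genes the groups did not overlap. Called rises were 17.4% of the genes tested, and 30.3% had all 3 knockdown libraries above all 3 scrambled controls.

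The other Ms4a genes stayed below 1 FPKM. Ms4a4b reached at most 0.720 FPKM and 166 reads over the 12 libraries. Its mean of 0.414 FPKM was above the 0.335 FPKM of Ms4a4c. Ms4a4b had 0.389, 0.387 and 0.192 FPKM in knockdown, against 0.463, 0.712 and 0.521 FPKM in the scrambled controls. These are 13, 13 and 8 reads against 15, 22 and 16 reads. The groups did not overlap, as was so for 15.1% of the genes tested, but Ms4a4b did not pass the filter. Its overexpression and empty groups overlapped. Ms4a4d reached at most 0.167 FPKM, and Ms4a15 had 12 reads in all. Ms4a1, Ms4a2, Ms4a5 and Ms4a10 were each above 0 in only 1 library, at 0.0122 to 0.0815 FPKM. Ms4a3, Ms4a8a, Ms4a13 and Ms4a18 were at 0 in all 12 libraries. The gene of CD20 reached 0.0815 FPKM and that of the IgE receptor chain 0.0122 FPKM, while Cd3e, Cd3g, Mcpt4, Tpsb2 and Kit were at 0. These markers of B cells, T cells and mast cells gave next to no signal. Of the B cell list Pax5 reached 1 FPKM, and the summed list stood at 0.745 to 1.30 FPKM in knockdown, against 0.847 to 1.19 FPKM in the scrambled controls. Of the neutrophil list S100a8 reached 1 FPKM and S100a9 was at 0, and the sum was 1.98 to 2.61 FPKM in knockdown, against 2.79 to 5.10 FPKM in the scrambled controls. The part of this shift in the fall of the Ms4a genes was not tested. Astrocyte, neuron, oligodendrocyte and fibroblast lists held no gene that reached 1 FPKM.

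With Spi1 raised, none of the Ms4a genes passed the test. No gene of the 11217 tested was called by limma between overexpression and empty control, while 122 had an unadjusted p below 0.05, so the called share was 0%. With the block 1577 genes had an unadjusted p below 0.05 in limma. In that fit 13 genes were called (0.116%), Spi1 among them and none of the Ms4a genes. By the ratio of means, Ms4a6b stood at 214% and Ms4a4c at 210% of the empty control, Ms4a7 at 140%, Ms4a6c at 110% and Ms4a6d at 103%. The least expressed genes had the largest ratios, and the most expressed gene had the smallest.

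Ms4a6b had 2.09, 1.46 and 1.98 FPKM in the overexpression libraries, against 1.35, 0.421 and 0.810 FPKM in the empty controls. These are 105, 68 and 97 reads against 51, 17 and 38 reads, and the groups did not overlap, as was so for 1.66% of the genes tested. The log2 fold change was 0.63 with a standard error of 0.197 and an unadjusted p of 0.0164 (limma), which did not pass adjustment over all genes (BH-adjusted p = 0.9999, or 0.113 with the block). Its log2 fold change was 1.12 with a pseudocount of 0.1 and 1.24 with limma-voom, and neither was called. An unadjusted p below 0.05 with a positive change was seen for 0.642% of the genes tested. Ms4a6b entered this test with a mean of 1.35 FPKM, reached through its high group. The group means were 1.84 FPKM in overexpression and 0.862 FPKM in the empty controls. In all, 3 of 3 overexpression and 1 of 3 empty libraries had 1 FPKM or more. The shares over all genes are therefore no support for a rise of this gene.

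Ms4a4c had 0.643, 0.399 and 0.619 FPKM in the overexpression libraries, against 0.364, 0.218 and 0.209 FPKM in the empty controls. These are 33, 19 and 31 reads against 14, 9 and 10 reads. The groups did not overlap, by a margin of less than 0.1 FPKM. Fitted with no filter on low values, the log2 fold change was 0.30, with an unadjusted p of 0.0177 in limma and a BH-adjusted p of 0.9999. In that fit 411 of 17157 genes had an unadjusted p below 0.05, in either direction.

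Ms4a7 had 10.7, 6.49 and 6.89 FPKM in the overexpression libraries, against 7.49, 4.95 and 4.74 FPKM in the empty controls. The groups overlapped, because the library numbered 1 was high in both. Within each number the overexpression library was higher, by ratios of 1.43, 1.31 and 1.46, and a rise in all 3 same-numbered pairs was seen for 14% of the genes tested. The log2 fold change was 0.42 with a standard error of 0.225 (limma, BH-adjusted p = 0.9999). With the block the standard error was 0.0459 and the adjusted p was 0.0839 (limma, BH).

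Ms4a6c and Ms4a6d did not separate. Ms4a6c had 4.19, 2.17 and 2.63 FPKM in the overexpression libraries, against 3.58, 2.14 and 2.42 FPKM in the empty controls, a log2 fold change of 0.09 with a 95% interval of −0.45 to 0.64 (limma). Ms4a6d had 32.7, 26.5 and 24.2 FPKM in the overexpression libraries, against 34.4, 23.0 and 23.2 FPKM in the empty controls, a log2 fold change of 0.06 with a 95% interval of −0.40 to 0.52 (limma). In both genes the library numbered 1 was the highest of its group, with and without extra Spi1. With the number as a block the 95% intervals were narrower and still held 0. They were −0.03 to 0.21 for Ms4a6c and −0.09 to 0.21 for Ms4a6d (limma). The sign of both folds turned negative when single libraries were left out, to −0.11 for Ms4a6c and −0.06 for Ms4a6d without the overexpression library numbered 1.

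**Figure D3:**
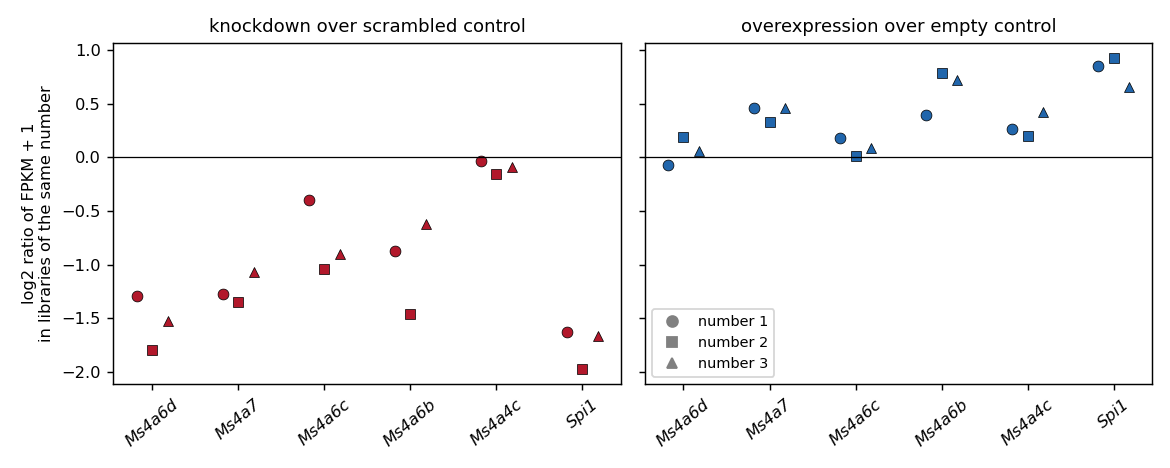
Log2 ratio of FPKM + 1 between treated and control libraries of the same number (1, 2 or 3) for the 5 Ms4a genes and Spi1, with knockdown over scrambled control on the left and overexpression over empty control on the right, and a line at 0. Every knockdown pair lies below 0, as for 24.6% of the genes tested, while the overexpression pairs of Ms4a6d and Ms4a6c lie near 0 and those of Ms4a6b run from 0.39 to 0.79.

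The difference between both effects, the change under overexpression minus the change under knockdown, was tested over all 12 libraries. It was 1.65 with a standard error of 0.307 for Ms4a7 (limma, BH-adjusted p = 0.0204), 1.62 with a standard error of 0.322 for Ms4a6b (limma, BH-adjusted p = 0.0228) and 1.60 with a standard error of 0.266 for Ms4a6d (limma, BH-adjusted p = 0.0123). Calls of this direction were 1.9% of the 11224 genes tested. Ms4a6b passed the filter here with a mean of 1.20 FPKM, reached through its scrambled and overexpression groups. Its means were 0.359 FPKM in knockdown and 0.862 FPKM in the empty controls. The size for Ms4a6b depended on the scale, as it was 3.16 with a pseudocount of 0.1 and 3.69 with limma-voom on recovered reads, against 1.90 and 2.05 for Ms4a7 and 1.68 and 1.795 for Ms4a6d. For Ms4a6c it was 0.87 with a standard error of 0.283 (limma, BH-adjusted p = 0.109). With the number as a block its adjusted p was 0.00565 (limma, BH), in a fit that called 12.9% of genes in this direction. Ms4a4c did not pass the filter, and without it the difference was 0.39 (limma, BH-adjusted p = 0.114). For Ms4a6d the overexpression side gave 0.06 of 1.60, and for Ms4a6b it gave 0.63 of 1.62. Without the libraries numbered 2 none of these differences passed the threshold, with adjusted p-values of 0.121 for Ms4a6b, 0.107 for Ms4a6d and 0.110 for Ms4a7 (limma, BH). For Ms4a7 the adjusted p was also above 0.05 without the knockdown library numbered 3 (0.0604), the scrambled library numbered 2 (0.0521) or the empty library numbered 3 (0.0621). For Ms4a6b it reached 0.0595 and 0.0687 without the knockdown library numbered 2 or 3, 0.0569 and 0.0651 without the scrambled library numbered 1 or 2, 0.0538 without the overexpression library numbered 1 and 0.0669 without the empty library numbered 3.

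**Figure D4:**
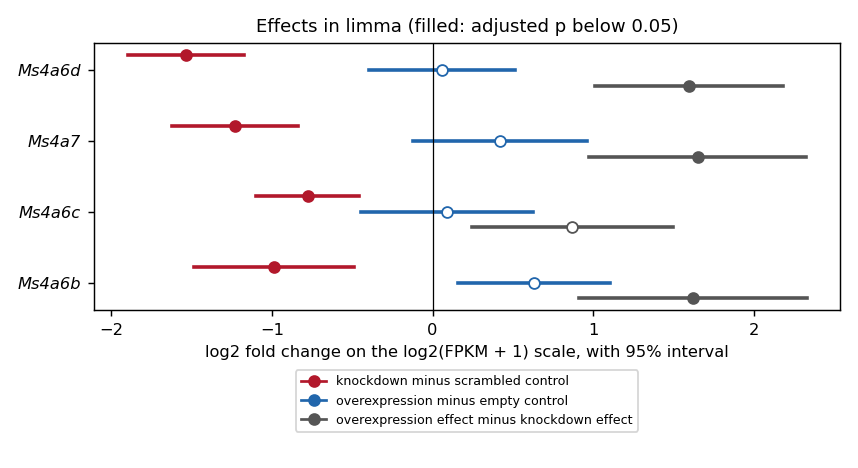
Log2 fold change on the log2(FPKM + 1) scale with its 95% interval from limma for the 4 Ms4a genes that passed the filter, as knockdown minus scrambled control, overexpression minus empty control and the difference between both effects, with filled points where the adjusted p is below 0.05. Knockdown effects run from −1.54 to −0.78, and no overexpression effect is filled.

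In the Tmem176 pair the differences had the other sign. Tmem176b had 14.7, 15.0 and 19.2 FPKM in overexpression, against 20.4, 24.0 and 29.4 FPKM in the empty controls, a log2 fold change of −0.56 with an unadjusted p of 0.0127 (limma, BH-adjusted p = 0.9999). These groups did not overlap, as was so with overexpression lower for 2.4% of genes. Tmem176a had 4.89, 7.33 and 9.93 FPKM in overexpression, against 7.24, 12.8 and 15.3 FPKM in the empty controls, and these groups overlapped. The difference between both effects was −1.27 for Tmem176b (limma, BH-adjusted p = 0.0197) and −1.50 for Tmem176a (limma, BH-adjusted p = 0.0502, and 0.000359 with the block), opposite in sign to that of the 4 Ms4a genes. Calls with a negative difference were 2.94% of the genes tested, and 28.6% with the block.

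**Figure D5:**
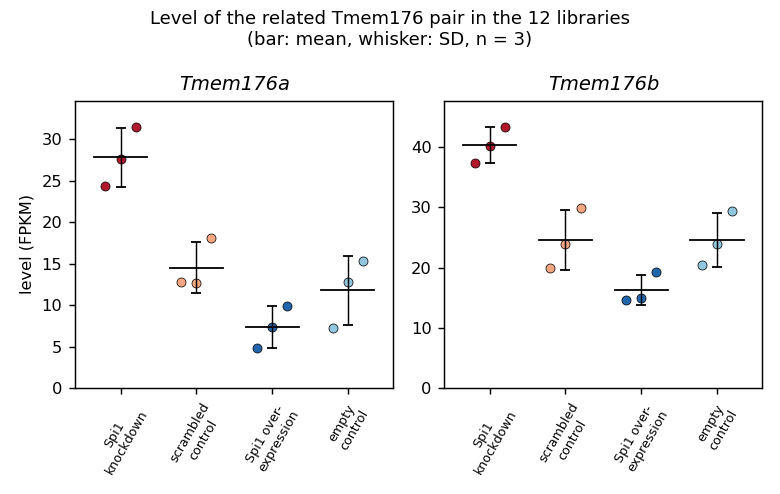
Level (FPKM) of Tmem176a and Tmem176b in each of the 12 libraries, with the mean as a bar and the SD as a whisker over 3 libraries a group. Knockdown libraries, at 24.4 to 31.5 FPKM for Tmem176a and 37.4 to 43.4 FPKM for Tmem176b, lie above all other groups.

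The levels can also be ordered over the 4 groups, with the reserve that control construct and experiment cannot be told apart. Ms4a6d and Ms4a7 were lower in every knockdown library than in any of the other 9 libraries, as was so for 5.74% of the genes tested in knockdown. For Ms4a6b, Ms4a6c and Ms4a4c the knockdown range overlapped that of the empty controls. The scrambled controls of Ms4a7 (8.17 to 12.1 FPKM) all lay above its empty controls (4.74 to 7.49 FPKM), as was so for 7.18% of genes, and its overexpression libraries (6.49 to 10.7 FPKM) overlapped both. In the other 4 genes the scrambled and empty controls overlapped. The order of group means was scrambled, overexpression, empty and knockdown for Ms4a6d, Ms4a7 and Ms4a6c, and overexpression, scrambled, empty and knockdown for Ms4a6b and Ms4a4c.

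Among genes averaging 1 FPKM or more, those with the most similar profile over the 12 libraries were sought by the root mean square difference of mean-centred log2(FPKM + 1), a description over 11223 genes that also reflects the shared treatments. For Ms4a6b the nearest were Cd86, a costimulatory ligand of antigen-presenting cells (0.229), Pik3ap1, an adaptor of PI3K signalling (0.230), and Ms4a7 (0.234). For Ms4a7 they were Slc12a9, a membrane protein of the cation-chloride cotransporter family (0.218), Cd86 (0.222) and Il1a, the cytokine interleukin 1 alpha (0.232). Ms4a6b ranked 6 and Ms4a6c ranked 10 among the genes nearest to Ms4a7. For Ms4a6d they were Myo1f, a myosin of leukocytes (0.241), Igsf6 (0.260) and Msrb1, a methionine sulfoxide reductase (0.266).

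For Ms4a6c the nearest genes included Slc30a1, a zinc exporter (0.130), and Fcgr1, the high-affinity IgG receptor (0.130). Cd86 had a mean of 20.5 ± 1.15 FPKM in knockdown and 40.6 ± 3.05 FPKM in the scrambled controls, and 33.1 ± 3.28 FPKM in overexpression and 27.3 ± 5.96 FPKM in the empty controls (SD, n = 3 each), the same order of treated and control as in Ms4a7. Igsf6 fell to 5.50 FPKM in knockdown, against 21.9 FPKM in the scrambled controls (limma, BH-adjusted p = 0.00150). Ms4a4c hardly varied on this scale, so its nearest genes, Col4a3bp (0.0855), Lcor (0.0903) and Rnasek (0.0906), are likewise genes with little variation. None of these 3 was called in knockdown, with log2 fold changes of −0.09, −0.14 and −0.07.

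Genes around the cluster moved in both directions. Of 24 neighbours outside the family, 22 were found and 14 passed the filter. In knockdown 2 of these were called higher and 4 lower, beside 17.4% called higher and 8.86% called lower over all genes. Their median log2 fold change was −0.13, against 0.07 over all genes tested. Rescaling the libraries by the median of ratios moved the median of all genes by 0.07, to 0.00, and gave 0 neighbours higher and 6 lower. That fit called 1251 genes higher and 1454 lower of the 11214 tested. With the number as a block the counts were 3 higher and 7 lower, in a fit that called 30.6% of all genes higher and 14.7% lower. The 4 called neighbours with the smallest p were Patl1, a factor of mRNA decapping (−0.40, adjusted p = 0.00562), Vps37c, an ESCRT-I subunit (−0.48, adjusted p = 0.00690), Dtx4, an E3 ubiquitin ligase (0.28, adjusted p = 0.0186) and Slc15a3, a histidine and peptide transporter of lysosomes (−0.38, adjusted p = 0.0217; limma with BH for all 4). Mrpl16 and Stx3, the tested neighbours nearest to Ms4a6d at 165.542 and 170.269 kb, had log2 fold changes of 0.17 (limma, BH-adjusted p = 0.202) and −0.19 (limma, BH-adjusted p = 0.0676). With the number as a block Stx3 was called (limma, BH-adjusted p = 0.0185) and Mrpl16 was not (limma, BH-adjusted p = 0.0794). In overexpression 0 of the 14 were called, and the nearest to a call were Cd5 with a log2 fold change of −0.44 and Dtx4 with 0.09, both with a BH-adjusted p of 0.9999 in limma.

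TREM2, the lipid-sensing receptor of microglia whose soluble form is tied to the human MS4A locus, was not itself called. Trem2 had a log2 fold change of −0.13 in knockdown (limma, BH-adjusted p = 0.265). Of 18 genes of TREM2 and its adaptor, kinases, proteases and ligands, all passed the filter, and in knockdown 0 were called higher and 5 lower, with a median log2 fold change of −0.12, beside 17.4% called higher and 8.86% called lower over all genes. With the number as a block the counts were 2 higher and 7 lower, beside 30.6% and 14.7% over all genes. Among the called genes were the kinases Lyn (−0.55, adjusted p = 0.00612) and Syk (−0.58, adjusted p = 0.00663), the adaptor Lcp2 (−0.42, adjusted p = 0.00976; limma with BH for all 3) and Tyrobp, the signalling adaptor of TREM2. In overexpression 0 were called, and the nearest to a call were Apoe with a log2 fold change of −0.32 and Pik3cg with −0.16, both with a BH-adjusted p of 0.9999 in limma.

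Fc receptor chains, tetraspanins and dectin-1 are membrane proteins with which tetraspan proteins of leukocytes are known to associate. Of 16 such genes 15 passed the filter, and in knockdown 0 were called higher and 8 lower, with a median log2 fold change of −0.24, again beside 17.4% higher and 8.86% lower over all genes. With the number as a block 1 was higher and 8 lower, beside 30.6% and 14.7% over all genes. The smallest p-values belonged to Clec7a, which encodes dectin-1 (−1.49, adjusted p = 0.00177), Fcgr1 (−0.90, adjusted p = 0.00193), the tetraspanin Cd82 (−0.64, adjusted p = 0.00280) and the IgG receptor Fcgr3 (−1.22, adjusted p = 0.00745; limma with BH for all 4). Clec7a averaged 9.83 FPKM in knockdown and 29.1 FPKM in the scrambled controls, with a log2 fold change near the −1.54 of Ms4a6d. In overexpression 0 were called, and the nearest to a call were Clec7a with a log2 fold change of 0.25 and Cd81 with −0.13, both with a BH-adjusted p of 0.9999 in limma.

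Ms4a6d held most of the summed FPKM of the 5 genes in every group. The sum was 16.9 ± 3.12 FPKM in knockdown, against 49.4 ± 7.97 FPKM in the scrambled controls (SD, n = 3 each). Shares of a sum are tied to each other, so the share of a gene can move with no change in its level. Ms4a6c took 9.86% of the sum in knockdown and 7.27% in the scrambled controls, with ranges of 9.18 to 11.0% and 6.46 to 8.09% that did not overlap. Ms4a4c took 1.30% in knockdown and 0.603% in the scrambled controls, again with ranges apart, on 8 to 17 reads a library. Ms4a6b took 2.02% in knockdown and 3.41% in the scrambled controls, and these ranges overlapped. In overexpression the sum was 41.2 ± 7.92 FPKM, against 36.4 ± 9.31 FPKM in the empty controls. There Ms4a6b took 4.51%, against 2.27% in the empty controls, and its ranges were apart, as were those of Ms4a7. Ms4a6d took 67.7% in overexpression, against 73.9% in the empty controls, and these ranges were apart as well. Its mean level there was 27.8 FPKM, against 26.9 FPKM in the empty controls.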

How the data were processed

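PolyA RNA of 12 sorted BV2 libraries was read as single 100-base reads on a kit without strand marking, per the labels' protocols. The authors deposited 2 tables of FPKM, 1 per experiment. Build mm10, STAR 2.5.2a, featureCounts, DESeq2 1.14, bcl2fastq and CASAVA 1.8.2 are listed without roles in the submitters' processing notes. The sources used here do not state an annotation, and FPKM was read as the unit from the values themselves. Steps in the values gave whole reads within 0.02 read for 17838 of 17838 genes above 0. The shortest length that gave whole reads was taken for each gene, so this share does not check the reads. For genes seen in few libraries the reads may be too low. These reads served for read counts, depth, Poisson intervals and limma-voom alone.

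Each experiment was fitted with limma 3.58.1 (R 4.3.3) on log2(FPKM + 1), over genes averaging 1 FPKM or more, with Benjamini-Hochberg (BH) adjustment over all of them and a threshold of 0.05. The difference between the effects was fitted over 12 libraries with 4 group means. Symbols used more than once (4 entries) were left out. The script was tested on simulated data. Groups came from the treatment labels and numbers from the titles. Deviations of same-numbered libraries from their group means correlated at 0.397, 0.540 and 0.345 between knockdown and scrambled libraries and at 0.791, 0.845 and 0.513 between overexpression and empty libraries. As each exceeded 0.1, numbers were read as pairs. Libraries of different numbers stayed below 0.1, except overexpression 3 with empty 1, at 0.161. The limit alone therefore does not separate pairs from other combinations. Standard errors, intervals and unadjusted p-values are from the fit without the block unless stated. The blocked value is printed wherever it changes a call.

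The members, gene lists and tests were chosen with earlier results of these data known. Genes outside the 5 were named by rule: from each list up to 4 called genes with the smallest p per experiment, or 2 where none was called, every related gene that passed the filter, and the 3 nearest in profile. Tyrobp, Trem2, Mrpl16, Stx3 and the marker genes were named beside this rule after their values were seen. Sequence alignments used Biopython 1.88. Some genes that the rule takes are left unreported. A planned comparison of protein sequences was not run.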

Additional observations from a re-analysis of the deposited data

How the results depend on the processing

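In knockdown 2945 genes were called, 5081 with the number as a block, 449 without the libraries numbered 2 and 1458 to 2206 without 1 library. In overexpression the block gave 13 calls against 0. For the difference 543 genes were called, 4658 with the block, 80 without the libraries numbered 2 and 109 to 575 without 1 library. With the block the calls among neighbours went to 10, against 6, and those of the TREM2 list to 9, against 5. Median-of-ratios scaling gave 1251 genes higher and 1454 lower in knockdown, against 1952 and 993.

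Ms4a6d and Ms4a7 were called in knockdown under every alternative, with adjusted p up to 0.0368 and 0.0492. Ms4a6b kept −0.99 but not its call with no filter (adjusted p 0.0522), and ran from −1.22 to −0.89 without 1 library. Ms4a6c gave −0.65 without the libraries numbered 2. In overexpression, without 1 library, Ms4a6c ran from −0.11 to 0.25 and Ms4a6d from −0.059 to 0.25, and Ms4a6d was −0.0065 without the libraries numbered 2. The difference for Ms4a6c was 0.87 and called with the block. Without the libraries numbered 2 it was 1.30 for Ms4a6b, 1.40 for Ms4a6d and 1.64 for Ms4a7, none called, and without 1 library it ran from 1.44 to 1.85 for Ms4a6b and from 1.45 to 1.83 for Ms4a7. The cause of these moves was not tested. Ms4a6b and Ms4a6c could not be tested at a minimum of 5 FPKM. A smaller pseudocount and limma-voom gave larger changes for Ms4a6b, up to −2.45 in knockdown, 1.24 in overexpression and 3.69 for the difference, with the same calls. The depth limits Ms4a4c and Ms4a6b, which rest on 8 to 105 reads a library.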
